A study of Mus musculus with 8 samples.

Results

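The respiratory chain subunits described here are the 79 genes whose symbol in the array's annotation starts with Ndufa, Ndufb, Ndufc, Ndufs, Ndufv, Sdh, Uqcr or Atp5, or with Cox followed by a digit from 4 to 8, of 14776 genes named on the array. They have 93 probes, and each gene was read from its brightest probe by the mean over all arrays. The same prefixes also take 7 assembly factors (Ndufaf1, Ndufaf3, Ndufaf4, Ndufaf5, Ndufaf7, Sdhaf2 and Sdhaf4), which build the complexes and are not part of them. Counts over all members include them, and counts by complex do not. RNA came from virus-specific effector CD8 T cells of the mouse, in 4 CKO samples and 4 WT samples, each hybridised to a 1-colour Illumina array. CKO cells came from mice with both copies of Blimp-1 flanked by loxP sites (Blimp-1flox/flox) and the GranzymeB-cre+ transgene, so that Cre is made only in cells that have switched on granzyme B; Blimp-1, encoded by Prdm1, is a transcriptional repressor of effector lymphocytes. WT cells came from littermates whose own floxed and Cre alleles the labels do not state. Mice of both groups received 200000 plaque-forming units of LCMV-Armstrong, a virus that causes an acute infection, and their spleen cells were sorted on day 8 for CD8 and for binding of DbGP33-41 and DbNP396-404 tetramers, so that each sample mixes cells of both specificities. The age and sex of the mice are not given, and the samples are called independent without saying which or how many animals gave each, so a p-value here measures the spread between these samples.

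Mitochondria make most of a resting cell's ATP by passing electrons from NADH and succinate along membrane complexes to oxygen. Complex I takes electrons from NADH and complex II takes them from succinate; both hand them to coenzyme Q, complex III passes them to cytochrome c, and complex IV gives them to oxygen. Complexes I, III and IV pump protons, and complex V, the ATP synthase, lets them flow back to make ATP. Effector CD8 T cells run both glycolysis and respiration while they divide, and memory cells are known for leaning on respiration. Part of the subunits is encoded in mitochondrial DNA; none of those 13 genes had a named probe, so the values below concern nuclear genes alone. Ndufs3, Ndufv2 and Sdha were not analysed here.

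The deposited values are log2 signals, already on a common scale, with an array median of 6.15 on every array and a lowest value of 5.33 or 5.34. A probe was tested where its mean over the 8 arrays was above 6.12, the median of those means. Differences are CKO minus WT on this log2 scale, where 1 is a doubling, and a gene is said to have risen or fallen in CKO cells where limma's two-sided test gave a Benjamini-Hochberg adjusted p below 0.05 over all 11991 probes tested. The targeted gene had 2 Prdm1 probes that moved in opposite directions: one read 6.29 to 6.65 in CKO cells and 7.51 to 8.07 in WT cells, and the other 8.65 to 9.27 in CKO cells and 5.59 to 6.11 in WT cells. Where these probes lie relative to the floxed part of Prdm1 is not given, so they do not check the labels by themselves. Cd8b1, a chain of the CD8 receptor, read 14.1 to 14.5 in CKO cells and 14.6 to 14.7 in WT cells on its brighter probe. The summed signal of 6 T cell and CD8 genes was 15.98 to 16.23 in CKO cells and 16.31 to 16.43 in WT cells (log2), and Cd2 and Thy1 among them fell; the part of this in the results below was not tested. The Cd4 probe stayed between 5.76 and 6.05 in all 8 samples, close to the lowest values of the arrays. The summed signal of 5 erythroid genes was 13.96, 9.35, 8.61 and 8.99 in CKO samples 1 to 4, and 13.63, 13.92, 12.60 and 12.39 in WT samples 1 to 4 (log2). Hba-a1, a haemoglobin chain, is among them. None of the 5 passed the test; with the sample number as a block, Hba-a1, Hbb-bt and, of the T cell genes, Cd3e were also lower in CKO cells. The part of erythroid RNA in the results below was not tested. The sums of 8 myeloid genes (10.07 to 12.13 in CKO cells, 10.38 to 11.60 in WT cells) overlapped between the groups. Those of 5 B cell genes read 8.98 to 9.16 in CKO cells and 9.10 to 9.75 in WT cells, with Pax5 near the lowest values of the arrays in every sample. Cd79b stood well above them, at 7.74 to 8.06 in CKO cells and 7.87 to 8.75 in WT cells on its brighter probe. Of the 4 B cell genes tested, all had lower means in CKO cells and none passed. The part of B cell RNA in the results below was not tested.

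Of the 79 genes, 74 passed the filter on dim probes, and 4 of these were higher in CKO cells: the complex I assembly factor Ndufaf4, the complex I subunit Ndufa12, the complex III core subunit Uqcrc2 and the complex IV isoform Cox7a1. None was lower. The 4 are 5.41% of the members tested, against 4.73% of all 8095 genes tested, a share near the background. Without the assembly factors, 3 of 67 subunits tested were higher (4.48%). Over all genes 3.04% were lower, and 7.77% passed in either direction. At an unadjusted p below 0.05 (limma), 12 members were higher and 3 lower, against 12.4% of all genes higher and 10.9% lower. For 63 of the 74 members (85.1%), against 75.3% of all genes tested, the whole 95% interval of the difference lay within 1.5-fold either way. The other 11 intervals reached past 1.5-fold; those of Ndufaf4, Ndufa12, Uqcrc2 and Atp5b among them excluded 0.

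The means leaned one way without most members passing the test. In 55 of the 74 members (74.3%) the mean was higher in CKO cells, against 47.3% of all genes tested. The median difference of the members was 0.10, against -0.01 for all genes, and the members ranged from -0.34 to 0.63. In 15 members (20.3%, against 9.19% of all genes) every CKO sample lay above every WT sample, and in 3 members (4.05%, against 6.49%) every CKO sample lay below every WT sample. Without the assembly factors, the mean was higher in 50 of 67 subunits (74.6%). Among these 67, every CKO sample lay above every WT sample in 12 (17.9%) and below in 3 (4.48%). These counts have no test, because subunits of one chain are not replicates of a condition. Taken sample by sample, the median deviation of the 74 members from their WT means was 0.14, 0.15, 0.08 and 0.03 in CKO samples 1 to 4, and -0.05, -0.01, 0.07 and -0.01 in WT samples 1 to 4. The CKO4 median was below that of WT3, so on this summary the groups overlapped, although within each of the 4 sample numbers the CKO median was above the WT median. In sorted cells of this kind, less RNA per cell and fewer cells of a type cannot be told apart.

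**Figure D1:**
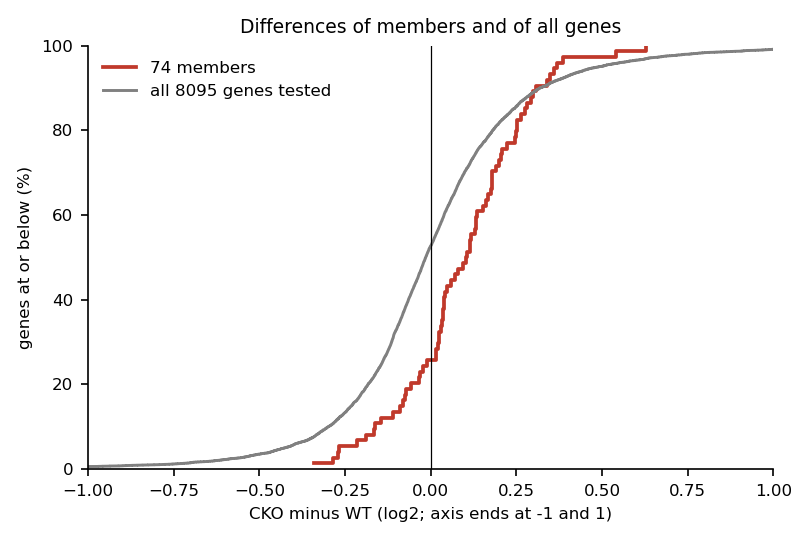
Cumulative share of genes (vertical axis, %) at or below each difference between CKO and WT cells (horizontal axis, log2), for the 74 members and for all 8095 genes tested. The curve of the members lies to the right over its middle part, with medians of 0.10 for the members and -0.01 for all genes, and ends within 0.63.

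**Figure D2:**
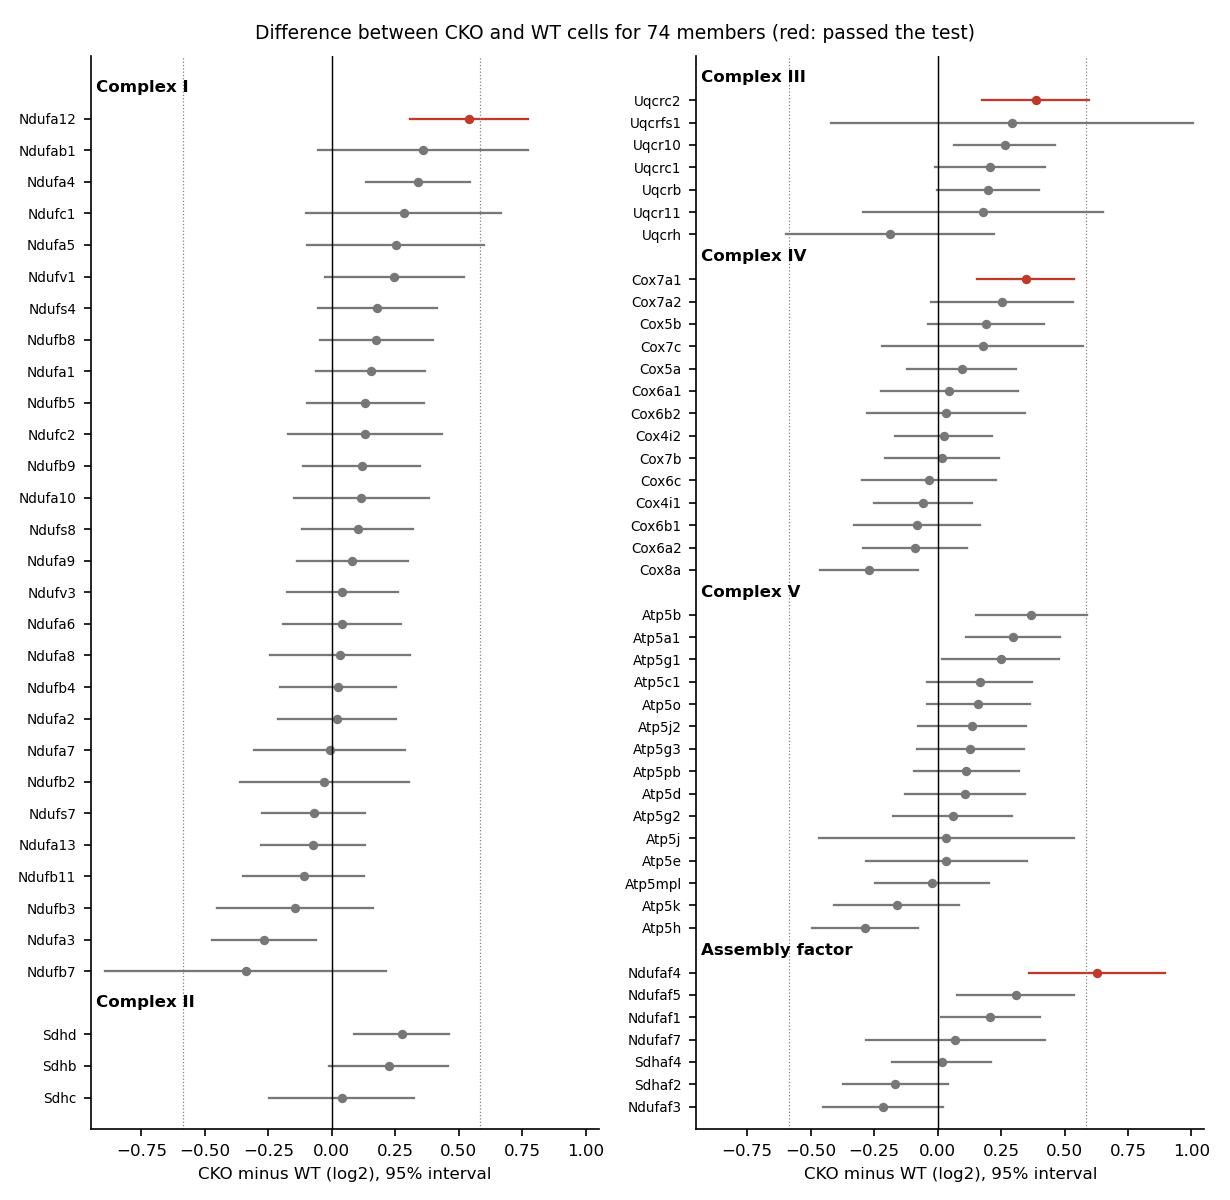
Difference between CKO and WT cells for each of the 74 members, grouped by complex (horizontal axis, log2; points are differences, bars 95% intervals, dotted lines 1.5-fold either way). Ndufaf4, Ndufa12, Uqcrc2 and Cox7a1, in red, passed the test, and most intervals stay between the dotted lines.

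Ndufaf4 rose the most of all members. It read 8.96, 9.29, 9.38 and 9.41 in CKO samples 1 to 4, and 8.65, 8.78, 8.63 and 8.47 in WT samples 1 to 4. Every CKO sample lay above every WT sample, with CKO1 nearest to them. The means were 9.26 ± 0.21 in CKO cells and 8.63 ± 0.13 in WT cells (SD, n = 4 each), a difference of 0.63 (SE 0.12, 95% interval 0.36 to 0.90), or 1.54-fold, with an adjusted p of 0.0133 by limma. Without CKO3 the adjusted p was 0.0544; it stayed below the threshold when any other single sample was left out. The protein belongs to the group of factors that join early parts of complex I. Ndufaf3, which works beside Ndufaf4 in the same assembly step, did not pass the test, and its difference was -0.21 (adjusted p 0.300, limma).

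Ndufa12 is an accessory subunit on the arm of complex I that faces the matrix. Its values were 11.09, 10.95, 11.03 and 11.18 in CKO samples 1 to 4, and 10.66, 10.54, 10.59 and 10.30 in WT samples 1 to 4. The groups were separate, and the lowest CKO sample stood clear of the highest WT sample. The means were 11.06 ± 0.10 in CKO cells and 10.52 ± 0.16 in WT cells (SD, n = 4 each). The difference of 0.54 (SE 0.10, 95% interval 0.31 to 0.77), or 1.45-fold, had an adjusted p of 0.0135 by limma. It was the one member that kept its call when each of the 8 samples was left out in turn, with adjusted p-values of 0.0148 to 0.0462.

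Uqcrc2, one of the large core subunits of complex III on the matrix side, read 11.81, 11.66, 11.89 and 11.80 in CKO samples 1 to 4. The WT samples 1 to 4 read 11.48, 11.24, 11.47 and 11.43. No WT sample reached a CKO sample, and sample 2 was the lowest of each group. The means were 11.79 ± 0.09 in CKO cells and 11.40 ± 0.11 in WT cells (SD, n = 4 each), a difference of 0.39 (SE 0.09, 95% interval 0.18 to 0.60), or 1.31-fold, with an adjusted p of 0.0378 by limma. The call held without CKO2 (0.0288) and was lost without any other single sample (0.0705 to 0.135).

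Cox7a1 encodes the isoform of complex IV subunit 7a that is abundant in heart and skeletal muscle. It read 7.15, 7.30, 7.12 and 7.12 in CKO samples 1 to 4, and 6.75, 6.88, 6.85 and 6.82 in WT samples 1 to 4. All CKO samples were above all WT samples, and all values lay in the dim part of the array, where a floor on the signal makes changes look smaller. The means were 7.17 ± 0.09 in CKO cells and 6.82 ± 0.06 in WT cells (SD, n = 4 each). The difference of 0.35 (SE 0.09), or 1.27-fold, had an adjusted p of 0.0405 by limma. This call was lost whichever of the 8 samples was left out, with adjusted p-values of 0.0543 to 0.114, and with robust, trended variances (0.0723).

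**Figure D3:**
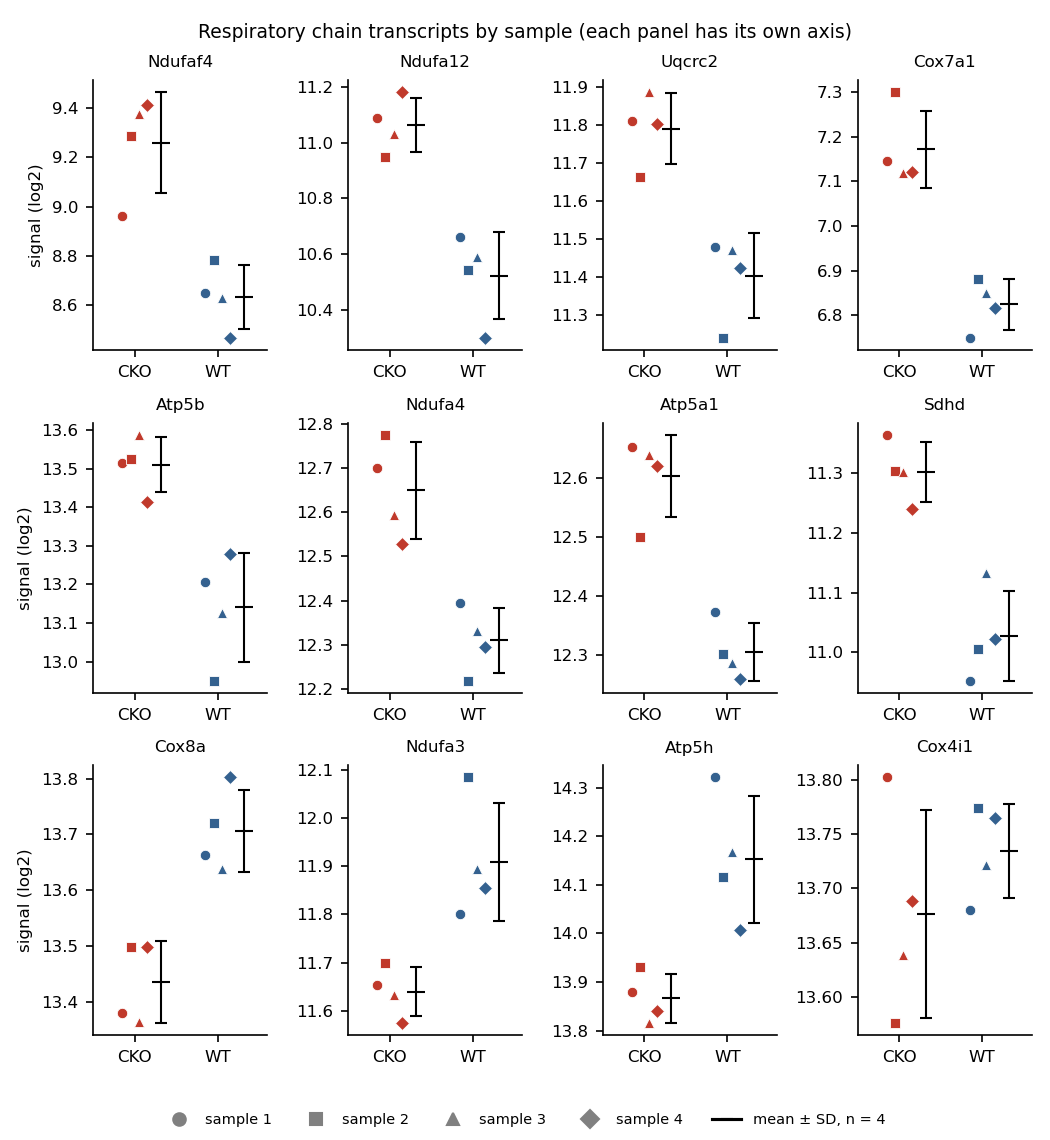
Log2 signal (vertical axes, one scale per panel) of 12 members in the CKO samples (red) and the WT samples (blue); symbols give the sample number and black bars the mean ± SD (n = 4). The top row holds the 4 members that passed the test, Atp5b, Ndufa4, Atp5a1 and Sdhd read higher and Cox8a, Ndufa3 and Atp5h lower in every CKO sample without passing it, and the groups overlap for Cox4i1.

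The promoters of 3 of these 4 genes are shown because the deleted factor binds DNA and because respiratory genes are known for binding sites of NRF1 and of ETS family factors near their starts. Each runs from 250 bases before to 50 bases after the RefSeq start (GRCm38.p6), 5′ to 3′ on the gene's strand, here the plus strand for all 3. Capitals mark a match to the NRF1 motif (GCGCA, any base, then GCGC) in Ndufaf4 (chr4:24897833-24898132) and to the PRDM1 motif GNGAAAGT, read on the other strand, in Cox7a1 (chr7:30183921-30184220). Ndufa12 (chr10:94198785-94199084) held neither of these nor the ETS motif CCGGAAG.
Ndufaf4: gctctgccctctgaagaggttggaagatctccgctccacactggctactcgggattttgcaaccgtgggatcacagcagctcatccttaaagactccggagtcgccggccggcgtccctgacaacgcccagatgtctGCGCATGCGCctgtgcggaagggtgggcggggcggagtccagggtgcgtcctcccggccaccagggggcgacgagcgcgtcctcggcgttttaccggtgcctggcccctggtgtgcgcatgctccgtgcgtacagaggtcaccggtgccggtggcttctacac
Ndufa12: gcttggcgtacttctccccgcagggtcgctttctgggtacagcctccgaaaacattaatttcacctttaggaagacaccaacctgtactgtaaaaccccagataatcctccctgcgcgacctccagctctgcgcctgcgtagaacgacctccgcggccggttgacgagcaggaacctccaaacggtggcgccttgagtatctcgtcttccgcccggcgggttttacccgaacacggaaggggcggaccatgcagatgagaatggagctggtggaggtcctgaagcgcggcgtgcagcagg
Cox7a1: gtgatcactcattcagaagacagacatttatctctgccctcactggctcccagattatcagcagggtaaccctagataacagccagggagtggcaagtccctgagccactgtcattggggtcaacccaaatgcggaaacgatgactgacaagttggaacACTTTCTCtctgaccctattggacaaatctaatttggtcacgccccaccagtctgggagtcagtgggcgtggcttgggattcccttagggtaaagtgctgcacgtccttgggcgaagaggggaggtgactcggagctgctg
The match in Ndufaf4 covers bases 138 to 147 of the window and that in Cox7a1 bases 160 to 167. RefSeq promoters were matched for 66 of the 79 members. Some genes have several promoters with overlapping windows, so matches were counted once per gene, on both strands. The NRF1 motif was found in 16 of the 66 members (24.2%), against 5.19% of all 27025 genes with promoters of the same length. The ETS motif was also found in 16 (24.2%), against 9.93%, and the PRDM1 motif in 4 (6.06%), against 4.77%, which is near the background. The members' promoters had a median GC content of 58.3%, against 52.7% of all promoters, and the NRF1 and ETS motifs are themselves rich in G and C. The part of base composition in the motif shares was not tested. None of the 3 motifs contains another. A match is a description of these letters and not a binding site.

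In complex I, 28 of 29 subunits were tested, 1 rose (3.57%, against 4.73% of all genes) and none fell (against 3.04%). The median difference was 0.09. The mean was higher in CKO cells for 20 of the 28 (71.4%, against 47.3% of all genes). Apart from Ndufa12, the groups were separate for Ndufa4 and Ndufa3, in opposite directions. Ndufa4, a small protein first purified with complex I and now counted with complex IV by many, read 12.70, 12.78, 12.59 and 12.53 in CKO samples 1 to 4, against 12.40, 12.22, 12.33 and 12.29 in WT samples 1 to 4. Each CKO value was above each WT value, and the difference of 0.34 missed the threshold (adjusted p 0.0561, limma). It passed with the mean of a gene's probes (0.0457), with 50 added before log2 (0.0271) and with robust, trended variances (0.0308). Ndufa4 has a single probe, so taking the mean of probes left its own values unchanged. Ndufa3, a membrane-arm accessory subunit, read 11.65, 11.70, 11.63 and 11.57 in CKO samples 1 to 4, against 11.80, 12.08, 11.89 and 11.86 in WT samples 1 to 4. Each CKO value was below each WT value, and its difference of -0.27 also missed the threshold (adjusted p 0.123, limma).

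The core subunits of complex I, which carry its flavin and iron-sulphur clusters, differed by little where they could be measured. Ndufv1, which binds NADH and the flavin, had a difference of 0.25 (95% interval -0.03 to 0.52). Ndufs7 and Ndufs8, which hold the last clusters before coenzyme Q, had differences of -0.07 (-0.27 to 0.13) and 0.10 (-0.12 to 0.32). None of the 3 passed, and all 3 intervals stayed within 1.5-fold. Ndufs1, the largest core subunit, had a probe that read 5.72 to 6.01 over all samples, under the filter, so it has no difference here. The most negative difference of the complex was that of Ndufb7, an accessory subunit of the membrane arm. It read 8.90, 8.49, 8.95 and 8.83 in CKO samples 1 to 4, and 9.12, 8.33, 9.63 and 9.45 in WT samples 1 to 4. WT2 was the lowest of all 8 samples and the other WT samples the highest, so the groups overlapped through sample 2. The difference was -0.34 (adjusted p 0.513, limma), and over the samples numbered 1, 3 and 4, a subset chosen with earlier results known, Ndufb7 was lower in CKO cells, by a difference of -0.51 (adjusted p 0.0486). Ndufab1, the mitochondrial acyl carrier protein, which also serves fatty acid synthesis, had a difference of 0.36 with an interval of -0.05 to 0.77; it falls outside the rule for named genes and was chosen after its values were seen.

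The other assembly factors that the prefixes take did not pass. Ndufaf5, which modifies a core subunit of complex I during assembly, read 9.14 to 9.35 in CKO cells and 8.74 to 9.07 in WT cells, a difference of 0.31 (adjusted p 0.118, limma). Ndufaf1 read 9.38 to 9.57 in CKO cells and 9.14 to 9.32 in WT cells, a difference of 0.21 (adjusted p 0.209). In both, the groups did not overlap. Sdhaf2, which helps to attach the flavin to complex II, had a difference of -0.17 (adjusted p 0.367) and Ndufaf7 one of 0.07. The wider list of assembly factors of complexes I to V had 29 tested of 45, and 7 of the 29 are the genes above. It held 1 gene that rose, Ndufaf4 (3.45%, against 4.73% of all genes), and none that fell (against 3.04%). Its median difference was 0.04. Uqcc1, which acts in the assembly of complex III, had the next smallest p of that list outside the members, with a difference of 0.32 on a dim probe (adjusted p 0.185).

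All 3 complex II subunits on the array were tested and none passed (1 higher at an unadjusted p below 0.05 by limma, against 12.4% of all genes), with a median difference of 0.22. Sdhd, a membrane anchor that holds haem, read 11.36, 11.30, 11.30 and 11.24 in CKO samples 1 to 4, and 10.95, 11.01, 11.13 and 11.02 in WT samples 1 to 4. Its groups were separate, with a difference of 0.27 (95% interval 0.09 to 0.46, adjusted p 0.0876, limma); it passed with 50 added before log2 (0.0350). Sdhb, the iron-sulphur subunit, read 11.59, 11.59, 11.49 and 11.45 in CKO samples 1 to 4, and 11.05, 11.33, 11.43 and 11.41 in WT samples 1 to 4. Its groups were separate by a narrow gap, between CKO4 and WT3, and the difference was 0.22 (adjusted p 0.264). A second, dimmer Sdhb probe gave -0.02, so the probes of Sdhb differ in sign. Sdhc, the other anchor, had a difference of 0.04 (95% interval -0.25 to 0.32) and overlapping groups.

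Of the 8 complex III subunits that the prefixes take, 7 were tested. Uqcrc2 alone rose (14.3% of the 7, against 4.73% of all genes) and none fell (against 3.04%). The median difference was 0.21. Uqcrc1, its partner in the core, read 11.61, 11.64, 11.36 and 11.37 in CKO samples 1 to 4, and 11.23, 11.30, 11.31 and 11.33 in WT samples 1 to 4. CKO3 and CKO4 stood just above the WT samples and CKO1 and CKO2 well above, and the difference of 0.21 did not pass (adjusted p 0.272, limma). The small subunits Uqcr10 (0.26, adjusted p 0.118) and Uqcrb (0.20, adjusted p 0.251) also had separate groups without passing. For Uqcrfs1, the Rieske iron-sulphur protein that passes electrons on towards cytochrome c, the probe was dim and scattered. It read 6.62, 7.15, 5.91 and 6.95 in CKO samples 1 to 4, and 6.92, 6.84, 5.81 and 5.87 in WT samples 1 to 4, with a difference of 0.29 and an interval of -0.42 to 1.00, so nothing can be said of its direction. Uqcrh, the hinge protein that holds cytochrome c, had the most negative difference of the complex, -0.19 (-0.60 to 0.22), with sample 2 the lowest in each group. Only 3 of the 7 intervals stayed within 1.5-fold, the smallest share of any complex here. The Uqcrq probe read 5.48 to 5.99 and was under the filter.

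In complex IV, 14 of 16 subunits were tested. Cox7a1 alone rose (7.14% of the 14, against 4.73% of all genes) and none fell (against 3.04%). The median difference was 0.03. All 14 intervals lay within 1.5-fold. Cox4i1, Cox5a and Cox5b, nuclear subunits that stand next to the catalytic core, had differences of -0.06 (95% interval -0.25 to 0.13), 0.09 (-0.12 to 0.31) and 0.19 (-0.04 to 0.42). Cox8a, the smallest subunit in its usual isoform, had values of 13.38, 13.50, 13.36 and 13.50 in CKO samples 1 to 4, and 13.66, 13.72, 13.64 and 13.80 in WT samples 1 to 4. Every CKO sample was below every WT sample, with a difference of -0.27 (95% interval -0.46 to -0.08, adjusted p 0.0981, limma), so it missed the threshold. It passed as lower with 50 added before log2 (0.0417) and with robust, trended variances (0.0451).

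Several complex IV subunits have a usual isoform and one known from particular tissues. For subunit 7a, Cox7a2, the usual form, had a difference of 0.25 with overlapping groups (9.31 to 9.64 in CKO cells, 8.89 to 9.38 in WT cells, adjusted p 0.298, limma), beside 0.35 for Cox7a1. For subunit 4 the differences were -0.06 for Cox4i1 and 0.02 for Cox4i2, a form known from lung. For subunit 6a they were 0.05 for Cox6a1 and -0.09 for Cox6a2, the muscle form, and for subunit 6b -0.08 for Cox6b1 and 0.03 for Cox6b2, the testis form. The probes of Cox4i2 (6.08 to 6.29 in CKO cells, 6.16 to 6.24 in WT cells), Cox6a2 and Cox6b2 stood near the filter, where a change could be hidden. Cox8b, the muscle form of subunit 8, and Cox7b2 read at most 6.10 and 6.26 in any sample and were under the filter. None of these pairs other than that of subunit 7a held a gene that passed.

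In complex V, 15 of 16 subunits were tested and none passed. At an unadjusted p below 0.05 (limma), 3 were higher and 1 lower, against 12.4% and 10.9% of all genes. The median difference of complex V was 0.11. Its mean was higher in CKO cells for 12 subunits (80%, against 47.3% of all genes). Its catalytic head came nearest. Atp5b, the catalytic beta subunit, read 13.52, 13.52, 13.59 and 13.41 in CKO samples 1 to 4, and 13.21, 12.95, 13.13 and 13.28 in WT samples 1 to 4. Its groups were separate, and the difference of 0.37 (95% interval 0.15 to 0.59) had an adjusted p of 0.0515 by limma, just above the threshold. It passed with the moderation of variances made robust and allowed to follow the mean signal (0.0228) and with 50 added before log2 (0.0284). It also passed with a stricter filter (0.0483) and with the mean of a gene's probes (0.0425). Atp5b has a single probe, so these last settings left its own values unchanged. Atp5a1, the alpha subunit that alternates with it around the head, read 12.65, 12.50, 12.64 and 12.62 in CKO samples 1 to 4, and 12.37, 12.30, 12.29 and 12.26 in WT samples 1 to 4. Here too no values overlapped, with a difference of 0.30 (95% interval 0.11 to 0.48, adjusted p 0.0634); it passed with 50 added before log2 (0.0231), with robust, trended variances (0.0363) and without CKO2 (0.0469). Atp5c1, the gamma shaft that turns inside the head, had a difference of 0.17 (-0.04 to 0.37) and overlapping groups.

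Atp5h, the d subunit of the stalk that holds the head still, went the other way. It read 13.88, 13.93, 13.82 and 13.84 in CKO samples 1 to 4, and 14.32, 14.12, 14.17 and 14.01 in WT samples 1 to 4. All CKO samples were below all WT samples, and the difference of -0.29 (95% interval -0.49 to -0.08) did not pass (adjusted p 0.108, limma); it passed with robust, trended variances (0.0486). Atp5g1, Atp5g2 and Atp5g3 encode the same mature c subunit of the membrane ring. Their differences were 0.25 (adjusted p 0.202), 0.06 (adjusted p 0.820) and 0.13 (adjusted p 0.520). Atp5g1 had CKO values of 11.86 to 11.90, all above the WT values of 11.39 to 11.82, and was the one of the 3 with separate groups. Atp5md had a probe under the filter, at 5.56 to 5.83.

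**Figure D4:**
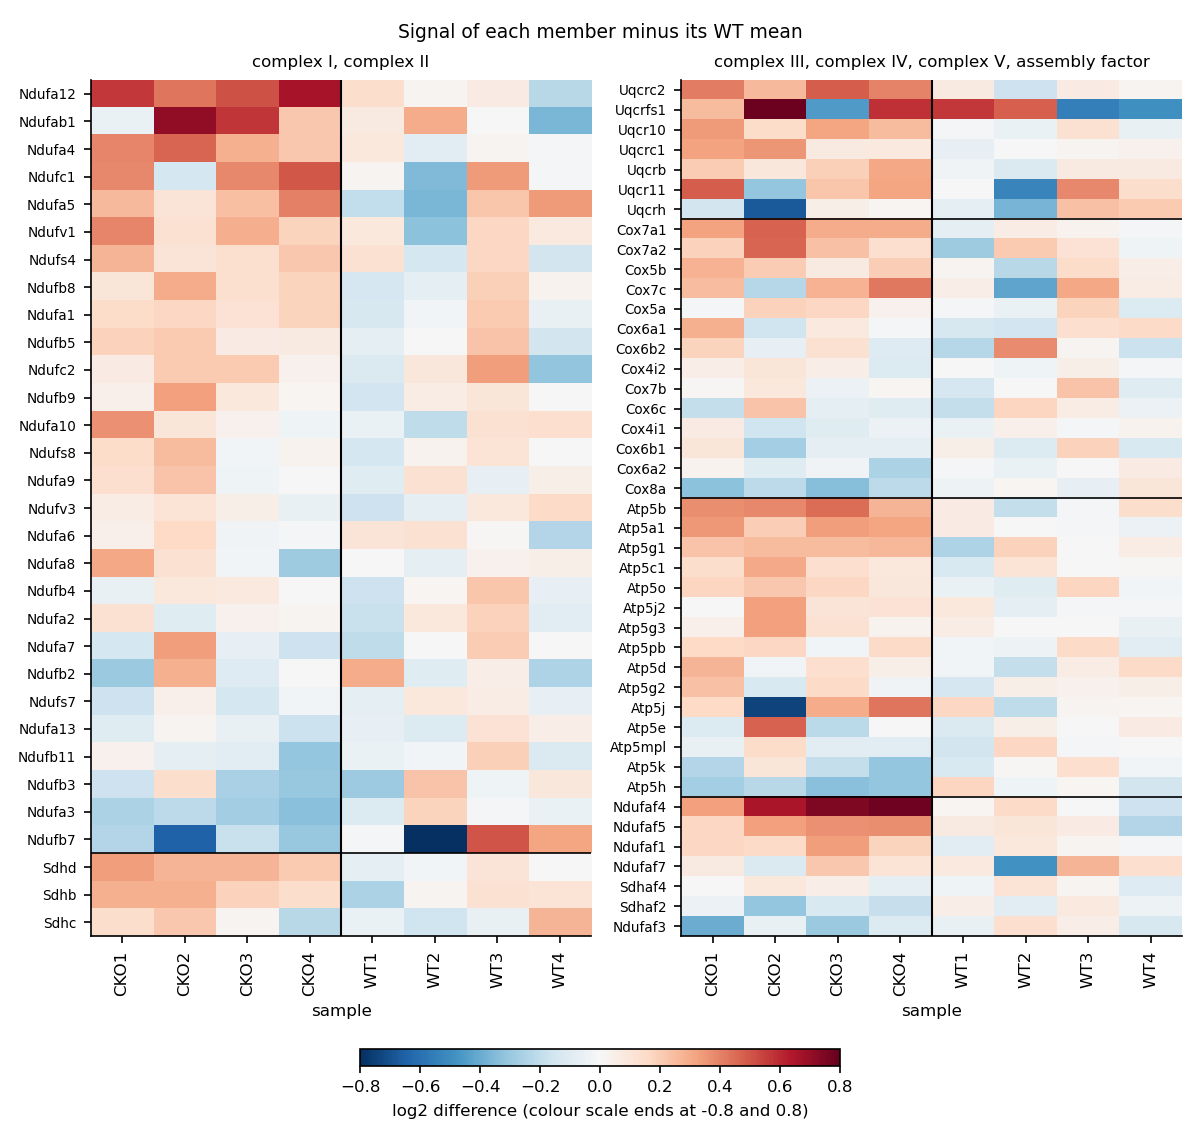
Each member's log2 signal minus its WT mean, by sample (columns, CKO samples left of the line, WT samples right of it), with members in rows grouped by complex; red is above and blue below the WT mean. Ndufaf4, Ndufa12, Uqcrc2, Atp5b and Atp5a1 are red in all 4 CKO samples, and CKO2 and WT2 share blue cells for Ndufb7, Uqcrh, Uqcr11 and Cox7c.

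Complexes II, III and V had the highest medians by sample. For complex V the median deviation was 0.16, 0.19, 0.13 and 0.08 in CKO samples 1 to 4, and -0.02, -0.0030, 0.01 and -0.0047 in WT samples 1 to 4. For complex III it was 0.32, 0.15, 0.19 and 0.31 in CKO samples 1 to 4, and -0.01, -0.11, 0.07 and 0.04 in WT samples 1 to 4. Both were separate between the groups, as was complex II (0.14 to 0.28 in CKO cells, -0.08 to 0.11 in WT cells), whereas complexes I and IV overlapped, with WT3 above all or all but one of the CKO samples. The complex II medians rest on 3 genes, against 7 for complex III and 15 for complex V. With samples 3 and 4 alone the complex II median difference was 0.05. Over all genes tested the sample medians were -0.04 to 0.04 in CKO cells and -0.01 to 0.04 in WT cells. These medians have no test, and differences between complexes were not tested.

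A part of the spread followed the sample number and not the genotype. In 14 of the 74 members sample 2 was the lowest of its group in both groups, and in 13 it was the highest in both. The same was not counted over all genes, so these counts do not set the members apart. Ndufb7 in CKO2 differed from the mean of the other CKO samples by -0.41, and in WT2 from that of the other WT samples by -1.08. For Uqcr11, a small complex III subunit, these differences were -0.65 in CKO2 and -0.71 in WT2, and for Cox7c, a small complex IV subunit, -0.55 in CKO2 and -0.57 in WT2. For Ndufab1 they were 0.47 in CKO2 and 0.39 in WT2. A probe for the ribosomal RNA 18S read 10.80 in CKO2 and 11.20 in WT2, against 12.71 to 12.92 in the other CKO samples and 12.47 to 12.99 in the other WT samples. What sample number 2 stands for is not given in the labels, and its part in these values was not tested. With the sample number as a block, 1017 genes of the whole table passed (556 higher, 461 lower) against 629 without it, and the same 4 members passed. Uqcr11 and Cox7c fall outside the rule for named genes and were chosen after their values were seen.

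For 4 members, probes of 1 gene disagreed in sign: Atp5j (0.04 and -0.03), Cox6a1 (0.05 and -0.10), Ndufv3 (0.04 and -0.05) and Sdhb (0.22 and -0.02). The gap was widest for Sdhb, and by the mean of its probes both its difference and the complex II median were 0.10. Each of the members that passed had a single probe, so no second probe could be set beside those calls. Of the 12 members with more than 1 probe, no tested probe passed. The table used here gives no probe positions, and subunit genes of this kind have near-identical processed copies elsewhere in the genome, so a probe may also read a copy.

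Genes that work around the chain were taken from lists chosen with earlier results of these data known. The shares called in these lists are therefore descriptions. A list of 20 genes held mobile carriers and coenzyme Q synthesis. It was mixed, and also held Etfa, Etfb, Etfdh, Dhodh and Gpd2, which act in passing electrons to coenzyme Q. Cyc1, a complex III subunit that the prefixes do not take, was on it too. Of the 20, 13 were tested, 2 rose (15.4%, against 4.73% of all genes) and none fell. In 12 of the 13 the mean was higher in CKO cells, against 47.3% of all genes, and the median difference was 0.29. Cycs, cytochrome c, which carries electrons between complexes III and IV, read 10.75, 10.68, 11.11 and 11.01 in CKO samples 1 to 4, and 10.43, 10.30, 10.52 and 10.08 in WT samples 1 to 4. The groups were separate, with a difference of 0.55, or 1.47-fold (adjusted p 0.0340, limma); it lost its call without CKO3, CKO4, WT1, WT2 or WT4 (0.0666 to 0.116). Coq8b, a kinase-like protein needed for coenzyme Q synthesis, read 7.80 to 7.97 in CKO cells and 7.20 to 7.61 in WT cells. Its difference was 0.46, or 1.37-fold (adjusted p 0.0353), and its call held without WT2 (0.0401) or WT4 (0.0324) and not without any other sample (0.0598 to 0.103). Gpd2, which feeds electrons from cytosolic glycerol phosphate into coenzyme Q, was the one gene of this list with a lower mean: 8.31 to 8.47 in CKO cells and 8.49 to 8.82 in WT cells, a difference of -0.31 (adjusted p 0.107). A dimmer probe of Gpd2 gave -0.40 and passed (adjusted p 0.0472), as did the mean of its probes (0.0453).

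The list for ATP and proton handling held 12 symbols, of which Atpif1 and Atp5if1 name the same gene. From it 7 genes were tested, 2 rose (28.6%, against 4.73% of all genes) and none fell, with a median difference of 0.19. Vdac1, the main channel of the outer membrane for ATP and metabolites, read 12.18, 11.96, 12.19 and 12.00 in CKO samples 1 to 4, and 11.44, 11.61, 11.53 and 11.78 in WT samples 1 to 4. The groups were separate, with a difference of 0.49, or 1.41-fold (adjusted p 0.0201, limma), and the call was lost without CKO1, CKO3, WT1 or WT3 (0.0543 to 0.0775). The other channels, Vdac2 and Vdac3, had differences of 0.06 and -0.11 and did not pass. Slc25a3, the phosphate carrier that supplies complex V, read 12.25 to 12.73 in CKO cells and 12.03 to 12.17 in WT cells. Its difference was 0.44, or 1.36-fold (adjusted p 0.0481), and held without CKO2 (0.00902) and not without any other sample (0.0793 to 0.160), nor with no filter on dim probes (0.0502). Atpif1, the inhibitor of complex V, had a difference of 0.28 (adjusted p 0.236).

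None of the 12 regulators of mitochondrial biogenesis tested, of 17 listed, passed in either direction, against 7.77% of all genes. Nor did any at an unadjusted p below 0.05 (limma), against 12.4% of all genes higher and 10.9% lower. The median difference was 0.05. Nrf1, the factor whose motif stands in the Ndufaf4 promoter above, read 9.06 to 9.58 in CKO cells and 9.35 to 10.04 in WT cells, a difference of -0.34 (95% interval -0.71 to 0.02, adjusted p 0.270, limma). With the sample number as a block Nrf1 was lower in CKO cells (adjusted p 0.0471), the one regulator called in that fit. Polrmt, the mitochondrial RNA polymerase, had a difference of 0.17 (adjusted p 0.345), and Esrra, a nuclear receptor that acts on respiratory genes, one of -0.21 (adjusted p 0.387). These are RNA levels; enzyme activity and oxygen use were not measured on these arrays.

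**Figure D5:**
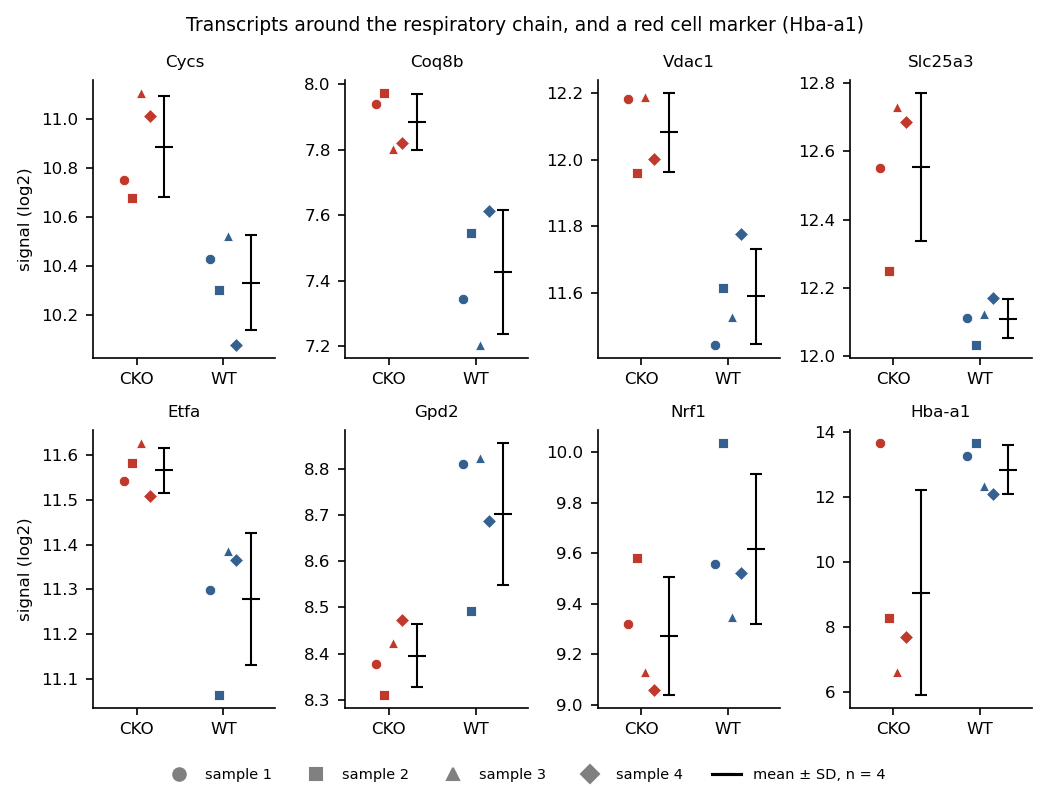
Log2 signal (vertical axes, one scale per panel) of 7 genes that act around the respiratory chain and of the red cell marker Hba-a1, in the CKO samples (red) and the WT samples (blue); symbols give the sample number and black bars the mean ± SD (n = 4). Cycs, Coq8b, Vdac1 and Slc25a3 passed the test and lie higher in every CKO sample, while for Hba-a1 the sample CKO1 lies with the WT samples.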

How the data were processed

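Total RNA of sorted spleen cells was amplified and labelled with biotin, per the labels' protocols. The deposited log2 values cover 24048 probes, 19397 of them with a gene name used here; 0.952% to 1.31% of values per array are missing. The authors' values share 1 distribution between arrays; the scanner software, background correction and normalization method are not stated in these sources, and no detection values were used. Arrays have no counting depth, so the 4 arrays per group limit the precision.

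Groups follow the labels. The deposited values were tested with limma 3.58.1 in R 4.3.3 (lmFit and eBayes, 4 CKO against 4 WT samples, no covariate) on all 11991 probes with a mean above 6.12, with Benjamini-Hochberg adjustment over them. The fit was tested on simulated data, with 200 probes changed by 1 (log2) and noise drawn independently for each sample. Those data held no smaller changes and no samples that deviate together. They do not show how well differences of the members' size are found. An 18S control probe was kept out of the gene names. Named are every member past the threshold, the 3 of each complex with the smallest p and its most negative difference, core subunits, isoform pairs, members whose probes disagree or whose groups do not overlap, and 3 genes per related list; others are marked. Members, lists, motifs and alternatives were chosen with earlier results of these data known. Same-numbered samples of the 2 groups deviated together (correlations over probes of 0.318, 0.468, 0.178 and 0.224 for numbers 1 to 4, all above 0.1), so the numbers were treated as pairs in an alternative fit; CKO3 with WT4 (0.263) and CKO4 with WT3 (0.254) were as high. Alternatives changed the filter, probe summary, scaling, offset, variance moderation, block and samples.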

Additional observations from a re-analysis of the deposited data

Results flagged for a closer look

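In 148 groups of 4 samples (74 members in CKO and in WT cells), 6 held a sample far from the other 3 by Dixon's criterion, which chance alone meets in about 1 of 20 groups. Cox7a1, one of the genes that rose, read 7.2994 in CKO2, above the 7.12 to 7.15 of the other CKO samples. Ndufaf1, a complex I assembly factor, read 9.567 in CKO3, above the other CKO samples at 9.38 to 9.41, and Ndufaf5 read 8.7433 in WT4, below the other WT samples at 9.04 to 9.07. In complex V, Atp5pb read 9.6651 in CKO3, below the other CKO samples at 9.84 to 9.85. Atp5mpl read 12.8689 in CKO2, above the other CKO samples at 12.63 to 12.67, and Atp5g2 read 11.6586 in WT1, below the other WT samples at 11.83 to 11.84.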

How the results depend on the processing

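Of the 4 members that were higher, all 4 were called in 7 settings other than the main one (no filter, a stricter filter, the mean of a gene's probes, centring, repeated quantile normalization, 50 added before log2, and the replicate block). Each of the 4 has a single probe, so the mean of a gene's probes left their own values unchanged. Adding 50 gave 8 higher and 1 lower, a trended robust variance 2 lower, without Cox7a1 among the higher ones. Leaving out 1 sample gave 1 to 4 members higher, and 291 (without CKO3) to 759 (without CKO2) genes over the whole table, against 629. The paired fit with the replicate block gave 1017. Samples numbered 1, 3 and 4 gave 1 member lower. Samples 2, 3 and 4 gave 1 higher and 278 genes over the whole table. Samples 1 and 2 gave 0 higher (limma) and 19 genes; samples 3 and 4 gave 2 higher and 1 lower. These subsets hold fewer samples. With samples 1 and 2 the median difference was 0.186 for all members, 0.196 for complex I, 0.354 for II, 0.104 for IV, 0.195 for V and 0.160 for assembly factors. With samples 3 and 4 it was 0.0306 for all members, -0.00398 for complex I, 0.05005 for II, -0.0633 for IV and 0.0507 for V. With samples 2, 3 and 4 it was 0.121 for complex II and -0.0360 for IV. The complex II median was 0.100 by the mean of a gene's probes and 0.140 to 0.264 with 1 sample left out, and that of assembly factors 0.0216 (without CKO3) to 0.160 (without WT3). Members near 0 changed sign. By the mean of probes Cox6a1 was -0.0256 and Ndufv3 -0.00317. With samples 1, 3 and 4 Cox4i2 was -0.0131, Ndufv3 -0.00804 and Sdhc -0.0733. With samples 2, 3 and 4 Atp5g2 was -0.0437, Cox6a1 -0.0744, Cox6b2 -0.0919, Ndufv3 -0.0211 and Sdhc -0.0140. With samples 1 and 2 Atp5j was -0.272 and Cox6b2 -0.0176. With samples 3 and 4 Cox4i2 was -0.0472, Cox6a1 -0.108, Ndufs8 -0.0530, Ndufv3 -0.125 and Sdhc -0.208. With 1 sample left out, Atp5j lay between -0.0956 and 0.295, Cox6a1 between -0.0314 and 0.116, Cox6b2 between -0.0434 and 0.158, Cox4i2 between -0.00158 and 0.0678, Sdhc between -0.0201 and 0.130, and Ndufv3 between -0.0138 and 0.0908. The cause was not tested. Where Ndufa4 stood with complex IV, no median moved by more than the spread between samples. Signal near the lowest values of the arrays limits Cox4i2, Cox6a2, Cox6b2, Uqcrfs1 and the 5 members under the filter.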
